A study of Homo sapiens with 6 samples.

Results

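ACHN, a human renal carcinoma cell line, was profiled by chromatin immunoprecipitation and sequencing for EZH2 and for H3K27me3, and the enzyme's peaks are set here against the peaks of its mark in the cells labelled ZCCHC8-WT. The members are all peaks of the 2 wild-type lists after identical lines were removed: 30734 EZH2 peaks and 93095 H3K27me3 peaks, together 123829 of the 213235 peaks in the 4 lists of the series. The other lists come from cells labelled ZCCHC8-KO, with 19566 EZH2 and 69840 H3K27me3 peaks, and serve only as a second look at the same places. ZCCHC8 is the scaffold protein of NEXT, a complex that hands short-lived nuclear RNAs to the exosome, and the labels give neither an age of the cultures nor whether the knockout is 1 clone or a pool. Each antibody and genotype had 1 library, so nothing below has a replicate check and no difference was tested. The 2 wild-type lists were called against the same input library, so a place where that input is low or high can enter or leave both.

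EZH2 is the enzyme within PRC2, a Polycomb repressive complex that places methyl groups on lysine 27 of histone H3. The fully methylated form, H3K27me3, is the hallmark of genes kept silent by Polycomb, above all developmental regulators such as homeobox genes, and it can spread over broad domains around the places where PRC2 is recruited. In mammals PRC2 is typically recruited to CpG islands, stretches rich in unmethylated CpG, when these are not actively transcribed. PRC1, a second complex, binds the mark through its CBX subunits. The mark is stable and the enzyme's contact with chromatin is dynamic, so the lists need not hold the same places.

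Promoters of 6 genes that peaks reach into serve as examples and need not be typical of their class: 2 where both lists had a peak, 2 with EZH2 alone and 2 with H3K27me3 alone. The peaks cover only part of most of these promoters. The genes were taken as the first of each class, in the order given further on, whose promoter itself held such a peak. The sequences run from 250 bases before to 50 bases after the annotated start, 5′ to 3′ on the gene's strand, from RefSeq on build GRCh38.p14, and capitals mark each CpG.
CR2, both, chr1:207454078-207454377, plus strand: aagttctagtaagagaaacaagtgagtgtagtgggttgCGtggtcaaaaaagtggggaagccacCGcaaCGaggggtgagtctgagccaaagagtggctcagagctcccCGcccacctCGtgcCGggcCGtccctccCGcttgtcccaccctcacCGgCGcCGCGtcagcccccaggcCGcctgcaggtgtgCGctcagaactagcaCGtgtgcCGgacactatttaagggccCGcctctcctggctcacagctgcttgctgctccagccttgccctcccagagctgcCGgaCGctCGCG
LOC124908046, both, chr2:113542459-113542758, minus strand: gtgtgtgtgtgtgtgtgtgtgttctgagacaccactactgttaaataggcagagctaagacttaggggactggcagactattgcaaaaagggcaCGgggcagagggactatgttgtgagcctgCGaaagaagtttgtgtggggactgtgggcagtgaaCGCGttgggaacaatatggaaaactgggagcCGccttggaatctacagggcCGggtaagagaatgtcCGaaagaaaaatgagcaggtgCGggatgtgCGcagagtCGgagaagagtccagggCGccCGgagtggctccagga
RFX4, EZH2 only, chr12:106582754-106583053, plus strand: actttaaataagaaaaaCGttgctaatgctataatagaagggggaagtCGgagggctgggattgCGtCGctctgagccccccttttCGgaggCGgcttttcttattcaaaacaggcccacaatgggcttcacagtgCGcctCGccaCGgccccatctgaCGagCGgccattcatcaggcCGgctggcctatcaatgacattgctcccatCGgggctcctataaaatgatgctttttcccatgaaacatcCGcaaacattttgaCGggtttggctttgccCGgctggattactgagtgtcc
PRDM12, EZH2 only, chr9:130664344-130664643, plus strand: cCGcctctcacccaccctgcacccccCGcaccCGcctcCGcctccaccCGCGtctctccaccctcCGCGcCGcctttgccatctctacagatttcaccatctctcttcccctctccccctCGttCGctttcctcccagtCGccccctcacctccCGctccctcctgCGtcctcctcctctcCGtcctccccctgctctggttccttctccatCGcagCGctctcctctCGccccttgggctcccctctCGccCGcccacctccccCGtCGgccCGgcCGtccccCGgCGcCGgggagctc
PNLIP, H3K27me3 only, chr10:116545681-116545980, plus strand: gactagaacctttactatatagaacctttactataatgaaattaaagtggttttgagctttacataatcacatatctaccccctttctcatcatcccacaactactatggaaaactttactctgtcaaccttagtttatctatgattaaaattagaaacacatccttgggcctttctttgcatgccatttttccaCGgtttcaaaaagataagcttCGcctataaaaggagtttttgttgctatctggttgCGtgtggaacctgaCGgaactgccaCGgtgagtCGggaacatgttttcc
OR6C70, H3K27me3 only, chr12:55470089-55470388, minus strand: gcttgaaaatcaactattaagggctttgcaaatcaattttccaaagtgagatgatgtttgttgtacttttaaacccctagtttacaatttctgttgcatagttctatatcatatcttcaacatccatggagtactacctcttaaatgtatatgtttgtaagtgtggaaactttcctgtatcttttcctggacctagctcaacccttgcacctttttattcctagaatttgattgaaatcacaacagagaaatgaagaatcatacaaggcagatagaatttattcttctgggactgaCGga

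The EZH2-only promoters held more CpG than the H3K27me3-only ones. PRDM12 had 27 CpG in 300 bases and RFX4 had 16, whereas PNLIP had 6 and OR6C70 had 1. CR2 held 21 and LOC124908046 held 12, more than the median of 3.5 over the 14 promoters of protein-coding genes with both. The peaks differed in how they lay: the EZH2 peak of PRDM12 spanned 640 bp and covered 222 bases of the promoter, and that of RFX4 spanned 199 bp with a score of 14, all of it inside the promoter. At CR2 the EZH2 peak of 740 bp lay almost wholly upstream and covered 11 of the 300 bases, while the H3K27me3 peak of 988 bp covered 92. At LOC124908046 the EZH2 peak covered all 300 bases and the H3K27me3 peak 24, and the H3K27me3 peaks of PNLIP and OR6C70 covered 80 and 109. The score is the authors' own value per peak, and none of the sources used here defines it.

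Among 20037 protein-coding genes, 1656 (8.26%) had both EZH2 and H3K27me3 within 5 kb of a gene end, 1352 (6.75%) had EZH2 only and 2260 (11.3%) had H3K27me3 only. EZH2 was listed near 15% of all genes and H3K27me3 near 19.5%. Of the genes with EZH2, 55.1% (53.3 to 56.8) also had H3K27me3, against 13.3% (12.8 to 13.8) of genes without EZH2. In the other direction, 42.3% (40.7 to 43.9) of genes with H3K27me3 had EZH2. Intervals of shares here and below are exact 95% Clopper-Pearson intervals, and they cover counting error only. The coincidence was more frequent where more peaks were listed: 43.3% of genes with 1 EZH2 peak, 72.5% of those with 2 and 88.7% of those with 5 or more had H3K27me3. Likewise 29.2% of genes with 1 H3K27me3 peak and 84.6% of those with 10 or more had EZH2.

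Genes with the most of both included complement, skin, neuronal and developmental genes. The covered share, the percentage of a gene's window that lies in peaks, ranks them, and for this class the smaller of the 2 shares was used. PRR15 on chromosome 7 led, with EZH2 over 21.7% of its window and H3K27me3 over 21.6%. CR2, the complement receptor of B cells and follicular dendritic cells, had 10 EZH2 peaks over 19.8% and 12 H3K27me3 peaks over 44.1%. LORICRIN, the main protein of the cornified envelope of skin, had 27.6% and 19.4%. RAPGEF4, an exchange factor for Rap that responds to cyclic AMP, had 20.1% and 17.96%. FEZF1, a transcription factor of the forebrain, had 18.5% and 17.7%, and DLX6, a homeobox factor of craniofacial and forebrain development, had 16.7% and 19.3%. KCNA1, a voltage-gated potassium channel of neurons, had 17.4% under 9 EZH2 peaks and 33.7% under 10 H3K27me3 peaks. LOC124908046 (24.8% and 18.4%), TMEM229A (17.9% and 21.5%) and CHN2 (16.4% and 18.7%), a GTPase-activating protein for Rac, complete the 10. PRR15, TMEM229A, FEZF1, DLX6 and CHN2, 5 of the 10, lie on chromosome 7, which held 9.42% of all genes with both and 4.68% of all genes.

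Genes with EZH2 but no H3K27me3 in the window were mostly thinly covered, with 82.9% holding 1 EZH2 peak and a median covered share of 1.13%. The genes that headed the class were not, and they include developmental regulators. RFX4, a transcription factor of the developing brain, had 10 EZH2 peaks over 23.2% of its window and no H3K27me3 peak. CRYBA2, a lens crystallin, had 7 over 22.6%, and EVX1, a homeobox gene beside the HOXA cluster, had 6 over 16.9%. PRDM12, a regulator of pain-sensing neurons, had 7 over 15.9%. MSI1, an RNA-binding protein of neural progenitors, had 3 over 14.98%, NKX2-5, a homeobox factor of the heart, had 4 over 14.9%, and SEMA5B, a semaphorin that guides axons, had 9 over 14.6%. C17orf100 (15.9%), C11orf96 (12.99%) and BLACAT1 (11.8%) complete the 10. The absence of the mark was often local: 7 of these 10 had an H3K27me3 peak within 10 kb of the window, at 0.321 kb for RFX4 and 1.77 kb for MSI1, and PRDM12 was the farthest at 134 kb. Over all 1352 genes, the median gap was 14.5 kb and 43.4% had the mark within 10 kb.

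The 10 leading genes with H3K27me3 but no EZH2 were of varied function. PNLIP, the pancreatic lipase, had 14 H3K27me3 peaks over 36.1% of its window. KLRF1, an activating receptor of natural killer cells, had 15 over 28.8%, and CLEC6A, a C-type lectin receptor of myeloid cells, had 12 over 26.8%. OR6C70, an olfactory receptor, had 6 over 28.2%. SLC38A4, an amino acid transporter, had 8 over 24.1%. IGF2BP1, an RNA-binding protein of fetal tissue, had 3 peaks over 23.6%, SCG2, a granin of neuroendocrine vesicles, had 7 over 23.1%, and DEFB134, a beta-defensin, had 9 over 21.9%. LOC124900574 had 28.5%. PPIAL4G, at 33.5%, belongs to a family of near-identical copies between which reads could be split, so its value is uncertain. For 5 of the 10, an EZH2 peak lay within 10 kb of the window, at 0.516 kb for KLRF1 and 4.43 kb for PNLIP. The median gap over all 2260 genes was 18.6 kb.

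Gene families divided differently between the classes. In 8 families of developmental transcription factors, 376 genes in all, 94 (25%) had both, 54 (14.4%) EZH2 only and 44 (11.7%) H3K27me3 only, beside 8.26%, 6.75% and 11.3% of all genes. Homeobox genes of the NK, DLX and related groups stood out in number: of 57, 22 had both, 11 EZH2 only, 6 H3K27me3 only and 18 neither. Of 77 homeobox genes of the paired, LIM, POU and related classes, 22 had both and 14 EZH2 only, led by POU3F2, a neural POU factor with EZH2 over 19.1% and H3K27me3 over 15.2% of its window. Of 51 developmental bHLH genes, 18 had both and 3 EZH2 only, and NEUROG2, which drives neuronal fate, had 14.1% and 15.5%. The 39 HOX genes, which set position along the body axis, had neither in 32 cases (82.1%), beside 73.7% of all genes, both in 5 (12.8%) and EZH2 only in 2. HOXC13 had the most EZH2, with 13 EZH2 peaks over 29.3% of its window and 6 H3K27me3 peaks over 12.4%. The other HOX genes with both were HOXC12 (18.1% and 2.69%), HOXD13 (9.77% and 5.27%), HOXD1 (5.51% and 16.9%) and HOXA13 (1.23% and 1.81%), named after their values were seen.

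Signalling and lineage effector families varied, and are read beside 8.26% of all genes with both, 6.75% with EZH2 only and 11.3% with H3K27me3 only. Of 72 WNT, BMP, GDF, FGF and related ligand genes, 19 (26.4%) had both, 15 (20.8%) EZH2 only and 5 (6.94%) H3K27me3 only. WNT2 had EZH2 over 15.1% and H3K27me3 over 16.3% of its window. DHH, a hedgehog ligand, had EZH2 over 8.24% with the nearest H3K27me3 peak 87.4 kb from its window. Of 390 olfactory receptor genes, 125 (32.1%) had H3K27me3 only, 32 (8.21%) had both and 6 (1.54%) had EZH2 only. Thus 20.4% of the members with the mark had the enzyme, beside 42.3% over all genes. Of 55 keratin genes, 14 (25.5%) had both, 8 (14.5%) EZH2 only and 5 (9.09%) H3K27me3 only. Of 42 C-type lectin genes, 12 (28.6%) had both, 3 (7.14%) EZH2 only and 9 (21.4%) H3K27me3 only. Like the olfactory receptors, epidermal differentiation genes had H3K27me3 only (22 of 51, 43.1%) more often than both (9, 17.6%). So did defensin genes, with 18 of 45 (40%) against 10 (22.2%). Potassium channel genes were split, with 22 (23.2%) both, 9 (9.47%) EZH2 only and 24 (25.3%) H3K27me3 only of 95. Genes that every cell needs were near empty: 80 of 82 ribosomal protein genes (97.6%) and 43 of 48 proteasome genes (89.6%) had neither, beside 73.7% of all genes. This was not particular to such genes, since 50 of 53 clustered protocadherin genes (94.3%) and 442 of 509 ZNF genes (86.8%) had neither as well. Neighbouring members of a cluster share peaks and are not independent, and the counts carry no test.

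**Figure D1:**
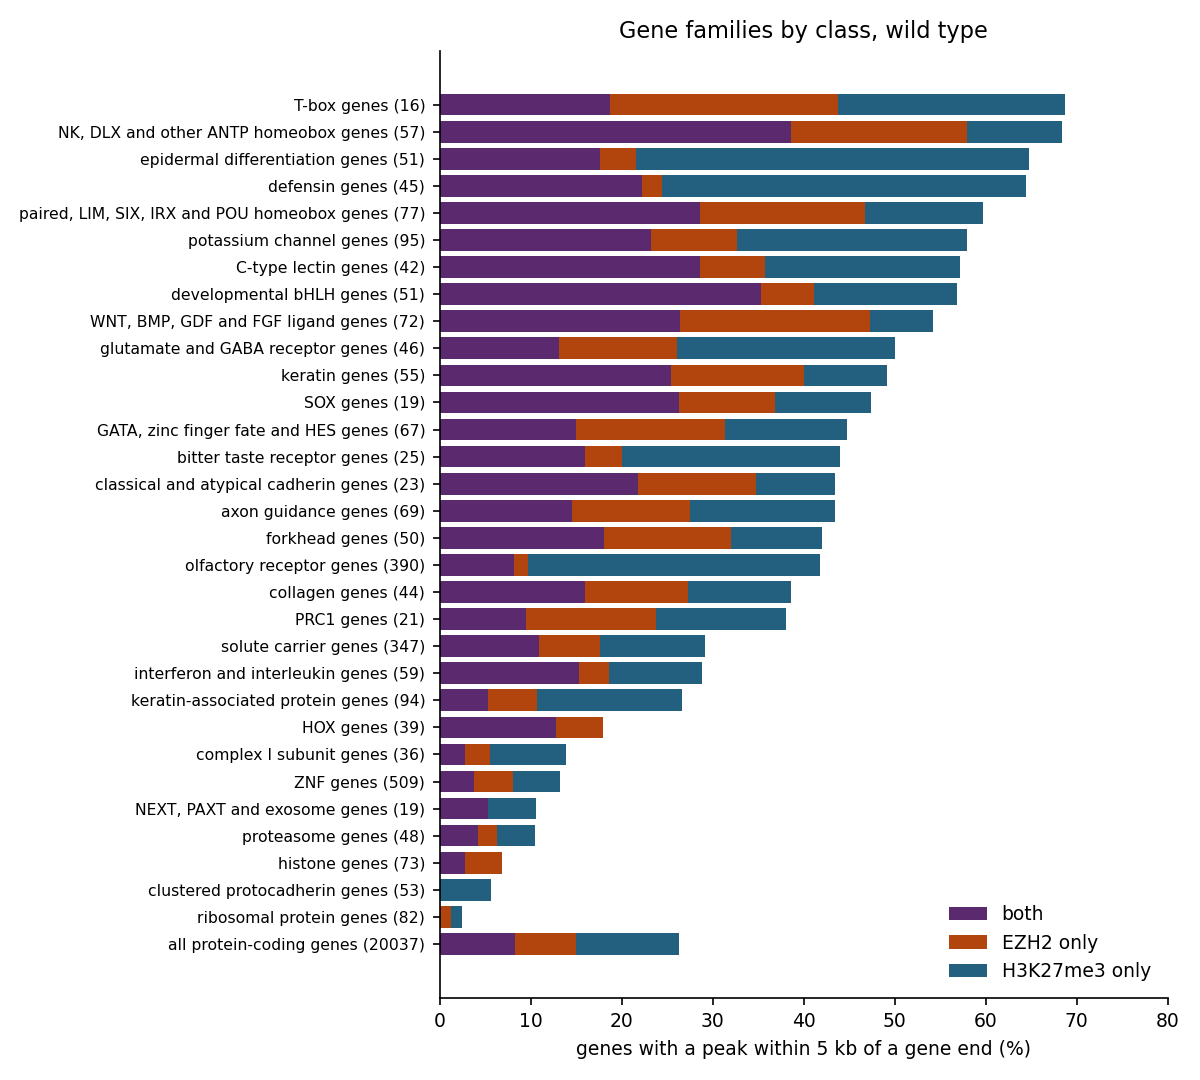
Share of genes in each class for families with at least 15 members (number of genes in brackets), as stacked bars in percent of the family; all protein-coding genes stand at the bottom. NK, DLX and other ANTP homeobox genes have the longest bar for both (38.6%), and olfactory receptor, epidermal and defensin bars have H3K27me3 only as their longest coloured segment.

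Genes of the machinery itself are read beside the 73.7% of all genes that had neither. None of the 14 genes counted as PRC2 subunits and cofactors had a peak of either kind. Of 21 PRC1 genes, 2 had both, 3 EZH2 only, 3 H3K27me3 only and 13 (61.9%) neither. BMI1, a PRC1 ring-finger subunit, had EZH2 over 10.8% and H3K27me3 over 4.24%, and CBX8, a chromodomain subunit, had EZH2 over 8.56% with no H3K27me3. CBX7 and CBX2 had H3K27me3 only, over 3.41% and 1.06%. Of 19 genes of NEXT, the related PAXT connection and the exosome, 17 had neither. Of 12 markers of renal carcinoma cells, 10 had neither, CDH6, a kidney cadherin, had both (8.06% and 13.95%) and KRT8 had EZH2 over 0.950%. RNA was not measured, so the lists give the peak status of these markers and of ZCCHC8, not their expression.

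The knockout lists, called against another input and not used to define the classes, listed 9.9% of all genes with EZH2, 17.2% with H3K27me3 and 6.25% with both, and listed again most often the genes with both. Of these 1656 genes, 50.1% (47.6 to 52.5) had EZH2 and 73.7% (71.5 to 75.8) had H3K27me3 in the knockout cells. Of the EZH2-only genes, 18.6% (16.6 to 20.8) had EZH2 again, and of the H3K27me3-only genes, 50.04% (47.96 to 52.1) had H3K27me3 again. Genes with neither in wild type had knockout EZH2 in 3.35% of cases and knockout H3K27me3 in 5.50%. Top scores differ between the classes, and the order stood within most score classes: for a top EZH2 score of 9 to 11, EZH2 was listed again for 59.05% of genes with both and 28.97% of genes with EZH2 only. At a top score of 15 or more it was listed again for 69 of 75 and for 15 of 15. The classes also differ in peak number: 51.8% of genes with both and 82.9% of EZH2-only genes had 1 EZH2 peak. More peaks give more places to be listed again, and the part of peak number was not tested. The 10 leading EZH2-only genes all had EZH2 again, and 6 of them, including RFX4, MSI1 and NKX2-5, had H3K27me3 in the knockout list. EVX1 and PRDM12 had EZH2 alone in both genotypes, with EVX1 at 29.5% and PRDM12 at 17.6% in the knockout. Of the 10 leading H3K27me3-only genes, 9 had the mark again (not SLC38A4) and 4 had EZH2 in the knockout, PNLIP with 5 peaks.

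Peak by peak, the lists met less often than gene by gene, but the 2 measures are unlike. A gene counts any peak of each list in its window, whereas a peak counts only where it overlaps one of the other list. Of the EZH2 peaks, 4295 of 30734 (13.97%, 13.6 to 14.4) overlapped an H3K27me3 peak by at least 1 bp, and 4207 of 93095 H3K27me3 peaks (4.52%, 4.39 to 4.65) overlapped an EZH2 peak. In length, 10.97% of the 7.63 Mb under EZH2 and 2.64% of the 31.7 Mb under H3K27me3 were shared. Most peaks were short, with a median of 208 bp for EZH2 and 269 bp for the mark. H3K27me3 lay within 1 kb of 30.04% of EZH2 peaks, within 10 kb of 63.2% and within 100 kb of 89.4%. These shares include the overlapping peaks and can only rise with distance. The share of all sequence that lies as near to the mark was not computed. Overlap varied between chromosomes, and so did the number of peaks. EZH2 peaks overlapped the mark in 20.6% of cases on chromosome 7, 20.02% on chromosome 12 and 19.1% on chromosome 2. Chromosomes 10 (16.4%) and 1 (14.7%) came next, beside 1.34% on chromosome X and a median of 8.40% over 23 chromosomes. Chromosome 7 held 12.9% of the EZH2 and 13.2% of the H3K27me3 list, and chromosome 12 held 10.7% and 10.2%. Chromosome X held 0.485% and 0.399%, and its share rests on 2 of 149 EZH2 peaks. The part of peak number in these shares was not tested.

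Overlap was more frequent at higher scores and widths of either peak. From a score of 5 to scores of 20 to 29, the share of EZH2 peaks overlapping H3K27me3 went from 8.19% (7.28 to 9.18) to 52.3% (36.7 to 67.5), and that of H3K27me3 peaks overlapping EZH2 from 1.39% (1.14 to 1.67) to 58.4% (47.5 to 68.8). Above that the numbers were small, 6 of 13 EZH2 peaks and 22 of 49 H3K27me3 peaks. EZH2 peaks under 200 bp overlapped in 9.50% of cases and those of 1000 bp or more in 66.9% (57.7 to 75.3). A wider peak has more bases with which to overlap, and the part of width in this was not tested. EZH2 peaks that overlapped the mark were also found again in the knockout EZH2 list more often, 14.2% (13.2 to 15.3) against 3.65% (3.43 to 3.89), and within scores of 12 to 14 the shares were 34.6% and 22.04%.

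**Figure D2:**
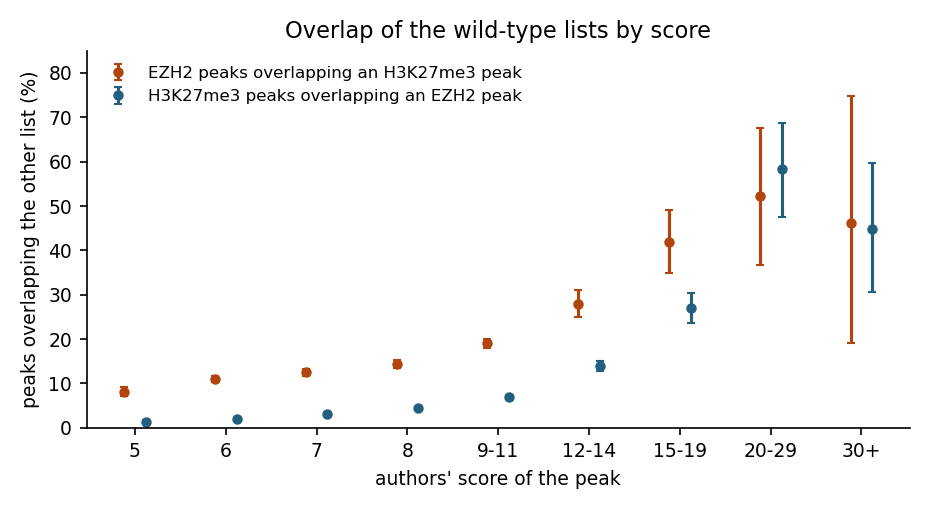
Share of peaks overlapping at least 1 bp of the other wild-type list (percent, vertical axis) by the authors' score of the peak (horizontal axis, score classes), with exact 95% binomial intervals. Both series climb from the lowest scores to the class of 20 to 29, where 52.3% of EZH2 and 58.4% of H3K27me3 peaks overlap, and the class of 30 or more has wide intervals.

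The mark was densest at the EZH2 peaks and stayed raised for many kilobases around them. Within 100 bp of an EZH2 midpoint, 9.30% of bases lay in an H3K27me3 peak, then 6.04% at 1 to 2 kb, 4.87% at 5 to 10 kb and 3.61% at 20 to 50 kb. The centre was thus 2.58 times the level 20 to 50 kb away. For EZH2 peaks with a score of 12 or more the centre held 21.6% and the flank 5.81%, a ratio of 3.71, and for scores of 5 to 6 the values were 6.77% and 2.81%. The reverse profile had the same form, with EZH2 over 2.14% of bases at H3K27me3 midpoints and 0.810% at 20 to 50 kb. Around H3K27me3 peaks with a score of 12 or more, EZH2 covered 7.69% at the centre.

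**Figure D3:**
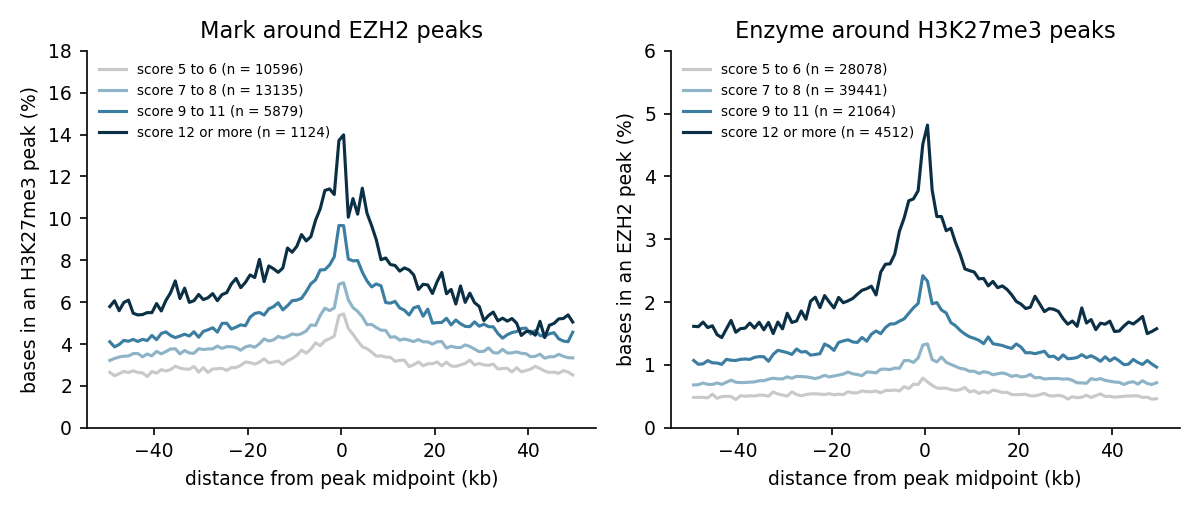
Percentage of bases inside a peak of the other wild-type list (vertical axes, different scales) in 1-kb bins out to 50 kb from the peak midpoint (horizontal axes, kb), 1 line per score class. Every line peaks at 0, and the darkest, for scores of 12 or more, lies above the others at the centre and over most of the flanks.

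Joining H3K27me3 peaks across gaps of up to 10 kb gave 30983 domains over 203 Mb. This was 6.58% of 3087 Mb, counted on each chromosome from its first base to the last gene or peak end. Sequence in which no peak could be called was not left out of that length. The domains held 10141 EZH2 peaks, 33.0% (32.5 to 33.5) of the list, at a density of 4.995 per 100 kb against 0.714 in the rest of that length. Of all domains 13.6% (13.3 to 14.04) held an EZH2 peak, but 53.2% of domains were a single H3K27me3 peak. By width the share went from 1.07% of domains under 1 kb through 36.8% at 10 to 25 kb to 91.0% at 50 to 100 kb, and 87 of the 88 domains of 100 kb or more held one. A wider domain offers more room, but the density was higher too, from 4.14 EZH2 peaks per 100 kb in domains of 10 to 25 kb to 9.13 in those of 100 kb or more. Within domains of at least 10 kb, H3K27me3 covered 27.8% of the bases under EZH2 peaks and 13.1% of the domain as a whole, a ratio of 2.13. This pooled ratio mixes domains of unlike cover. EZH2 density was 2.18 per 100 kb where the mark covered under 5% of the domain and 14.3 where it covered 30% or more. Within classes of cover the ratio was lower, at most 1.84 (10 to 15% cover). In domains with under 5% cover it was 0.737, with 3.22% under EZH2 peaks against 4.37%.

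The widest domains with EZH2 held few genes. The first, chr2:92286630-93012906, contained no protein-coding gene and held 386 H3K27me3 and 145 EZH2 peaks over 726 kb, of which 127 EZH2 peaks overlapped the mark. It lies in the centromeric region of chromosome 2, a region known for repeated sequence in which read placement is uncertain, and the knockout lists had 373 and 153 peaks there. The second, chr12:64764197-65162445, spanned TBC1D30, which encodes a Rab GTPase-activating protein, and WIF1, a secreted inhibitor of WNT signalling, with 220 and 81 peaks. The third, chr7:95693382-96079920, lay over DYNC1I1, a neuronal dynein chain, with 176 H3K27me3 and 52 EZH2 peaks. The densest of those named was chr12:53852205-53967667 over HOXC13 and HOXC12, with 36 EZH2 peaks in 115 kb, or 31.2 per 100 kb. A domain of 293 kb over the C-type lectin receptor genes CLEC12A, CLEC1B, CLEC7A and their neighbours on chromosome 12 held 129 H3K27me3 and 30 EZH2 peaks.

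Broad domains differed in how many EZH2 peaks they held. Inside MAGI2, a synaptic scaffold gene on chromosome 7, a domain of 362 kb held 146 H3K27me3 peaks and 10 EZH2 peaks, or 2.76 per 100 kb, and a neighbour of 321 kb held 169 and 17, or 5.29 per 100 kb. The knockout H3K27me3 list had 5 and 4 peaks there. The widest domain without any EZH2 peak, 131 kb with 62 H3K27me3 peaks, lay over ZNF804B, a zinc finger gene whose end windows nonetheless held both. The next with genes lay over APBA1, a synaptic adaptor (95.6 kb, 37 peaks), and over DSC3 and DSC2, desmosomal cadherins (83.2 kb, 26 peaks). The knockout lists had 1 EZH2 and 25 H3K27me3 peaks at the ZNF804B domain, 5 and 15 at the APBA1 domain, and 1 and 0 at the DSC3 and DSC2 domain.

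Inside the domains EZH2 peaks showed no preferred place. On a scale from 0 at the edge to 1 at the centre, on which an even spread has its median midway, the median over 8566 peaks in domains of at least 10 kb was 0.504 (95% interval 0.493 to 0.515). Of 10 equal bins from edge to centre, each held between 9.67% and 10.25% of the peaks. The median was 0.521 (0.476 to 0.572) for scores of 12 or more and 0.548 (0.508 to 0.595) for EZH2 peaks of 500 bp or more, and 0.469 (0.437 to 0.496) where a domain had 1 EZH2 peak. The last of these intervals lies on the edge side and that of the wide peaks on the centre side, each by a small margin. Because a domain begins and ends with an H3K27me3 peak by construction, the mark covered 30.3% of the outermost bin and 10.3% to 11.6% of the others. EZH2 peaks that overlapped the mark had 15.1% in the outermost bin and those that did not had 7.21%. In the knockout lists the median position was 0.501 (0.489 to 0.514), with 38.7% of EZH2 peaks inside domains.

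**Figure D4:**
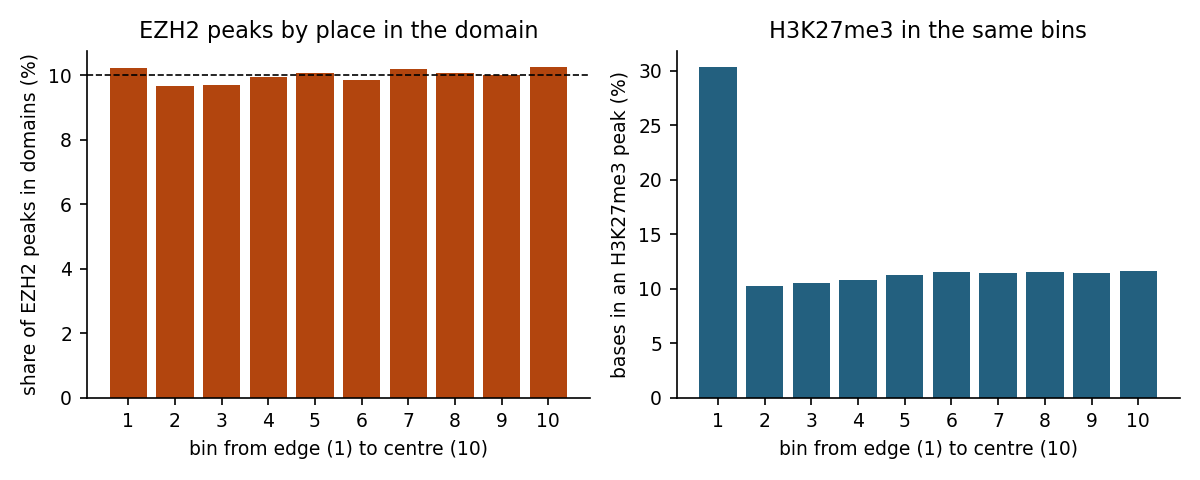
Place of 8566 EZH2 midpoints in H3K27me3 domains of at least 10 kb, in 10 equal bins from edge (1) to centre (10): share of EZH2 peaks (left, percent, dashed line for an even spread) and bases covered by H3K27me3 (right, percent). The EZH2 bars stay between 9.67% and 10.25%, while the mark's outermost bar stands at 30.3% because every domain ends in a peak.

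Promoters under the enzyme and promoters under the mark differed in base composition. A small part of either list lay near starts: 3.02% of EZH2 peaks and 1.35% of H3K27me3 peaks were within 1 kb of a start, counted over the 29599 and 89014 peaks on chromosomes with starts in the table used here. The share of all sequence within 1 kb of a start was not computed, so these shares show neither depletion nor enrichment at starts. Of 22199 promoters of protein-coding genes, 14 (0.0631%) held both, 115 (0.518%) EZH2 only and 126 (0.568%) H3K27me3 only, so 10.9% (6.06 to 17.5) of EZH2 promoters held the mark, beside 0.631% (0.531 to 0.744) of all promoters and 13.97% of all EZH2 peaks. EZH2 peaks that overlapped the mark lay within 1 kb of a start in 3.16% of cases and those that did not in 2.997% (2.79 to 3.21). Promoters with EZH2 only had a median GC content of 57.3% and a median observed over expected CpG ratio of 0.624, those with H3K27me3 only 42.0% and 0.186, and all promoters 62.3% and 0.737. The 14 promoters with both had medians of 44% and 0.279, nearer to H3K27me3 only. CR2 and LOC124908046, printed above, lie above both of these medians. H3K27me3 peaks lay on 3.26% of promoters with under 40% GC, 0.0558% at 60 to 70% and 0.0174% at 70% or more. EZH2 peaks lay on 0.567%, 0.572% and 0.209% of the same promoters, with the highest share, 1.09%, at 40 to 50%. Of 12912 promoters with at least 60% GC, 53 held EZH2 and 5 held H3K27me3, and in the knockout lists 29 and 3. The motif CGCG, read on either strand since it is its own reverse complement, was in 50.4% (41.0 to 59.9) of EZH2-only promoters, 5.56% (2.26 to 11.1) of H3K27me3-only promoters and 62.3% of all. It was in 5 of the 14 promoters with both (35.7%, 12.8 to 64.9).

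Around CpG-rich starts that had both lists within 5 kb, the peaks sat beside the start rather than on it. The levels there follow from that choice, but their place does not. At 707 starts with a CpG-rich promoter (observed over expected at least 0.6), H3K27me3 covered 0.990% of bases within 500 bp of the start, 10.5% at 1 to 2 kb and 11.5% at 2.5 to 5 kb. EZH2 covered 4.60%, 12.6% and 6.12% at the same distances, so its cover was higher at 1 to 2 kb than at the start or farther out. At 499 starts with a CpG-poor promoter the dip of the mark was shallower, with 6.90% within 500 bp and 10.6% at 2.5 to 5 kb. EZH2 there covered 5.04% within 500 bp, 5.94% at 1 to 2 kb and 4.46% at 2.5 to 5 kb. Of these distances it too was highest at 1 to 2 kb, by a smaller margin than at CpG-rich starts. The knockout lists at the same CpG-rich starts gave 0.397% near the start and 7.95% at 2.5 to 5 kb for H3K27me3, and 2.12%, 7.94% at 1 to 2 kb and 4.27% for EZH2. The dip was not particular to starts with both. Over all 13804 CpG-rich starts, wild-type H3K27me3 covered 0.0616% of bases within 500 bp and 0.949% at 2.5 to 5 kb. Wild-type EZH2 covered 0.286% within 500 bp, 0.858% at 1 to 2 kb and 0.451% at 2.5 to 5 kb. By class, 58.6% (55.8 to 61.4) of starts with both and 59.98% (56.8 to 63.1) of starts with EZH2 only had a CpG-rich promoter, against 41.5% (39.2 to 43.7) with H3K27me3 only and 62.2% of all starts. The lists show neither read depth nor nucleosome content by base composition, and the part of GC content in the dip was not tested. Nearby starts of 1 gene share peaks and are not independent.

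**Figure D5:**
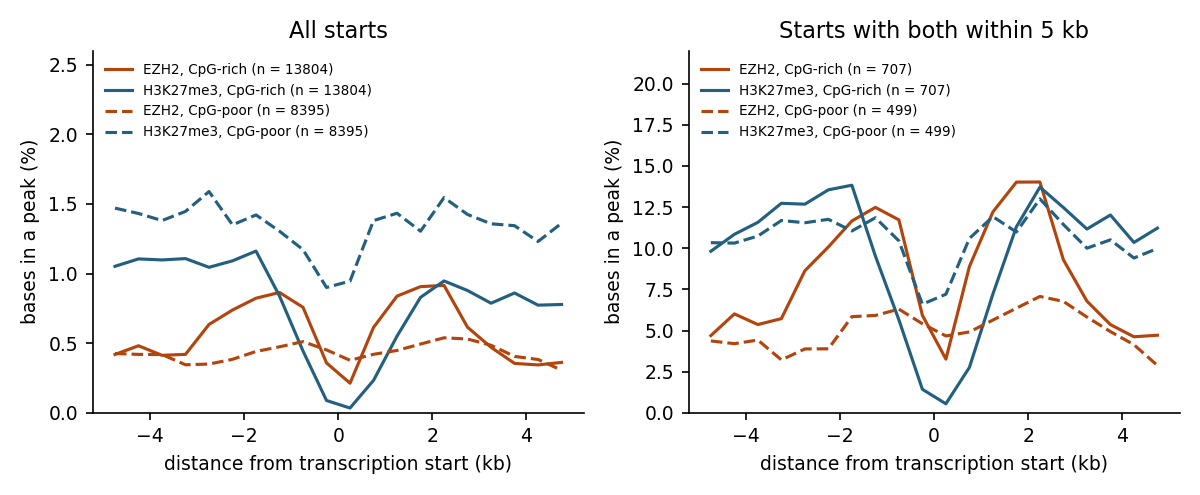
Percentage of bases in a wild-type EZH2 (orange) or H3K27me3 (blue) peak in 500-bp bins from 5 kb upstream to 5 kb downstream of transcription starts (horizontal axis, kb), for CpG-rich (solid) and CpG-poor (dashed) promoters; left all starts, right starts with both lists within 5 kb, with different vertical scales. At CpG-rich starts both solid lines dip at 0, the H3K27me3 line to 0.990% within 500 bp in the right panel, and the EZH2 line is high at 1 to 2 kb (12.6%).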

How the data were processed

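Fixed chromatin was sonicated and immunoprecipitated, and libraries were sequenced from both ends, per the labels' protocols. The submitters' processing notes name cutadapt 1.9.3, Bowtie2 2.2.4 and hg38; none of the sources used here gives the peak caller or the depth per library, which is therefore unknown. Each deposited list gave coordinates, a length equal to end minus start plus 1, and the authors' score, whose definition is not given. Scores ranked peaks within a list only.

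Members, gene lists and rules were chosen with earlier results of these data known. Overlaps, stitched domains (gaps up to 10 kb; an EZH2 peak is inside by its midpoint) and covered shares were computed in Python 3.11.15 (pandas 2.3.3, SciPy 1.17.1, NumPy 2.4.6), and figures were drawn with matplotlib 3.10.9. Routines were tested on simulated data against brute force. Genes came from RefSeq (GRCh38.p14, no strand), with windows of 5 kb around both ends, merged where they meet.

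Named genes are, per class, the 10 with the largest covered share, taking 1 of any genes whose windows overlap; in each of 32 families, the top member per class, of which a selection is printed; the PRC2, PRC1 and NEXT genes, of which a selection is printed; and the 5 widest domains with EZH2, without it, and with most EZH2 peaks. Base composition by gene class was void, since 79.1% of genes have a promoter entry, under the 80% set, so promoters themselves were compared. The start profiles were chosen after seeing the data. Alternatives changed score, list length, overlap, stitching, windows and regions.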

Additional observations from a re-analysis of the deposited data

How the results depend on the processing

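The median position in domains stayed within its 95% interval in all 7 settings tried for it. Other values moved as follows; the shares named are, in order, EZH2 peaks overlapping H3K27me3, H3K27me3 peaks overlapping EZH2, EZH2 peaks inside domains and domains holding EZH2. With scores of 7 or more, the first was 14.4%, the third 31.98% and the fourth 11.67%. Genes with both, EZH2 only and H3K27me3 only then numbered 1241, 1055 and 2003. With the H3K27me3 list cut to the length of the EZH2 list, the shares were 8.76%, 8.36%, 18.3% and 16.4%. In that setting 1084 genes had both, 1924 EZH2 only and 962 H3K27me3 only, since fewer H3K27me3 peaks enter. The order of these classes thus depends on list length: H3K27me3 only went from the largest to the smallest. Without chromosome 7 the shares were 12.995%, 4.23%, 30.9% and 12.5%. An overlap of at least 50% of the shorter peak gave 10.2% and 3.25% for the first pair. Stitching across 3 kb gave 18.4% and 6.87% for the last pair, and across 20 kb 44.5% and 20.996%. Genes with both, EZH2 only and H3K27me3 only numbered 715, 900 and 1502 within 2 kb of the gene ends, and 949, 739 and 1432 within 5 kb of a start (15843 genes). Within 10 kb of the ends 2860 had both. Over whole genes with 5 kb on both sides 3211 had both, 2186 EZH2 only and 1996 H3K27me3 only. There both was the largest class and H3K27me3 only the smallest, so the order of the classes depends on the gene window too. Leaving out peaks over 1 Mb from a gene, or the chromosome 2 stretch with most EZH2 peaks (chosen after seeing the data), moved no value past its interval. No paired analysis was possible because each group had 1 library. Unknown read depth limits every absence: a place without a peak may hold signal below the caller's threshold.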
